A study of Homo sapiens with 2 samples.

Results

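The p53 target genes described here are 34 genes that the transcription factor p53 is known to switch on. They were chosen by name for their known roles, with earlier results of these data known, and all 34 were found among the 33538 genes of both count tables. By role, 5 act in cell cycle arrest, 12 in cell death, 5 in DNA repair and 4 in metabolism, and 8 act in feedback on p53 or in other ways. Expression was measured by single-cell RNA-sequencing (scRNA-seq) in HCT116, a human colon cancer cell line. The DAC-treated cells received decitabine (DAC), a cytidine analog that is built into DNA, traps DNA methyltransferases and thereby lowers DNA methylation, at a dose of 0.5 μM on day 1 and again on day 3. A change to drug-free medium followed on day 5, and the experiment ended on day 7. The mock-treated cells were the controls, and 1 library was made from each condition.

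p53 is made continuously and kept scarce by the ubiquitin ligase MDM2, which marks it for degradation. DNA damage and other stresses release p53 from MDM2, and the stabilized protein binds DNA as a tetramer and activates genes that halt the cell cycle, repair DNA, adjust metabolism or start cell death. Some of its targets, MDM2 among them, act back on p53 and limit the response. The best known arrest target is *CDKN1A*, which encodes the CDK inhibitor p21. p21 in turn lets the DREAM complex repress genes needed for mitosis.

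A unique molecular identifier (UMI) marks each captured transcript molecule, so that a UMI count is a count of molecules. In all, 49911689 UMIs came from 1783 mock-treated cells and 59046165 UMIs from 1751 DAC-treated cells, with cells ranging from 500 to 148446 UMIs over both. In 311 mock-treated and 319 DAC-treated cells, the mitochondrial genome gave over 50% of a cell's UMIs. The libraries had 12 cell barcodes in common. All 5 colon epithelial markers examined (*EPCAM*, *KRT8*, *KRT18*, *CDH1*, and *CDX2*) were detected in both libraries, with 438 UMIs or more each. Of 5 markers of blood, stroma, and endothelium, *PTPRC*, *CD3E*, *COL1A2*, and *PECAM1* had 0 UMIs in mock-treated and 9 to 46 in DAC-treated cells, whereas *COL1A1* had 533 and 1112. Their part in the results was not tested. Since each condition had 1 library, no difference between conditions had a replicate check, no test was made, and all intervals cover counting error only.

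The p53 protein recognizes a pair of half-sites of 10 bases, each made of purines, a C, a pair of A or T bases, a G, and pyrimidines. The hg38 sequence within 2500 bases on either side of the RefSeq gene start was searched for 2 adjacent half-sites. Up to 2 mismatches over the 20 bases were allowed, but never at the C or the G of a half-site. The consensus reads the same on both strands, so 1 search covered both. RefSeq promoters of the GRCh38.p14 assembly were matched for 26 of the 34 p53 target genes. At least 1 match was found for 13 of the 26 genes (50%), compared with 4.05% of the 27305 windows of all genes. With at most 1 mismatch, 5 of the 26 genes (19.2%) had a match, compared with 0.645% of all windows. The sites shown here are those with no mismatch and a selection of the others. Among those not shown are sites of *CCNG1* and *EDA2R* with 1 mismatch. The capitals mark the C and G of each half-site.
*PLK2* (chr5:58462274-58462293, minus strand): aaaCatGcctggaCttGccc
*ZMAT3* (chr3:179070188-179070207, minus strand): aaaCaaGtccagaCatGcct
*CDKN1A* (chr6:36676449-36676468, plus strand): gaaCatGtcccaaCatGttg
*MDM2* (chr12:68808923-68808942, plus strand): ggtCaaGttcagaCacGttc
*FAS* (chr10:88991309-88991328, plus strand): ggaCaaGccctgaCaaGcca
*DDB2* (chr11:47214969-47214988, plus strand): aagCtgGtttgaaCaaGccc
*BAX* (chr19:48955213-48955232, plus strand): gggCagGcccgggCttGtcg
*GDF15* (chr19:18385308-18385327, plus strand): catCttGcccagaCttGtct

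The sites of *PLK2* and *ZMAT3* had 0 mismatches, that of *DDB2* had 1, and the other 5 shown had 2. Positions of the first base are given relative to the RefSeq gene start, with negative values upstream. The match of *PLK2* began at −2207, outside the annotated gene. That of *CDKN1A* began at −2265, where it overlapped an exon of a longer annotated transcript. The matches of *MDM2* and *ZMAT3* were intronic, at 751 and 1602, and those of *FAS*, *DDB2*, and *BAX* lay in annotated exons, at 511, 515, and 338. The *GDF15* match began at −850 and fell in an intron of a longer annotated transcript. A match describes the letters of the window and does not show that p53 was bound there.

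The 300 bases around the gene start (250 before and 50 after) were rich in CpG dinucleotides, the bases that DNA methylation modifies. The promoters of the 26 p53 target genes held a median of 28.5 CpGs, compared with 14 over all 27305 promoters. The latter were taken whether or not the gene was expressed in these cells, and expressed genes were not compared separately. The ratio of observed to expected CpGs was 0.6 or more in 80.8% of the p53 target promoters and in 49.0% of all promoters. DNA methylation at these promoters was not analysed here.

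To examine which p53 target genes differed between conditions, the UMIs of each gene were added up within each library and expressed relative to all of its UMIs (counts per 1e6 UMIs, CPM). A gene was called higher or lower in DAC-treated cells when its CPM differed by 1.5-fold or more (0.585 on the log2 scale), among genes with at least 100 UMIs over both libraries. Of the 34 genes, 31 passed this minimum. Of these, 16 were higher, 4 were lower, and 11 lay between the limits. Over all 13547 genes that passed, 31% were higher and 14.2% were lower. The median log2 CPM ratio (DAC-treated over mock-treated) was 0.70 for the p53 target genes and 0.24 for all genes, a difference of 0.47. Scaling the libraries by the median of gene ratios moved the all-gene median to 0.05 and the p53 target count to 13 higher and 4 lower, beside 23.0% and 19.8% of all genes. The genes that then fell below the limit were *RPS27L*, *SESN1*, and *ZMAT3*.

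**Figure D1:**
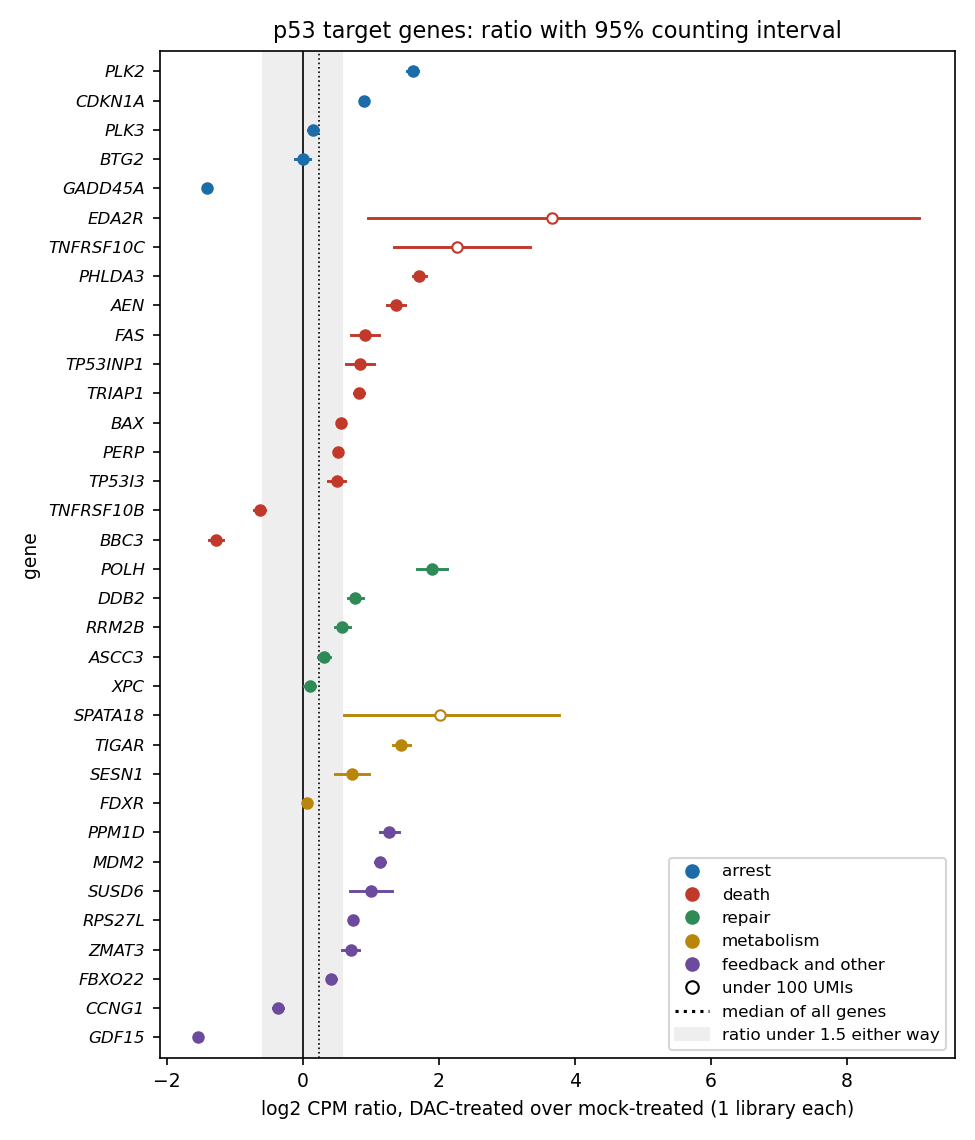
Log2 CPM ratio (DAC-treated over mock-treated, x axis) of each of the 34 p53 target genes (y axis), coloured by role, with 95% counting intervals as bars and 1 library per condition. Points right of the grey band are higher in DAC-treated cells by 1.5-fold or more, open circles have under 100 UMIs, and *GDF15*, *GADD45A*, *BBC3*, and *TNFRSF10B* lie left of the band.

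Among the arrest genes, *CDKN1A* and *PLK2* were higher in DAC-treated cells and *GADD45A* was lower, with 2 genes between the limits, beside 31% higher and 14.2% lower of all genes. *CDKN1A* (chr6:36676460-36687337, plus strand) had 5394 UMIs in mock-treated and 11894 in DAC-treated cells. This was 108 and 201 CPM, 1.86-fold higher in DAC-treated cells (95% interval 1.80 to 1.93). *PLK2* (chr5:58453982-58460139, minus strand), a polo-like kinase induced by stress, had 1571 and 5710 UMIs, and was 3.07-fold higher (2.90 to 3.25). *GADD45A* (chr1:67685201-67688334, plus strand), a stress sensor that binds PCNA and CDK1, had 10145 and 4508 UMIs. Its level in mock-treated cells was 2.66-fold that in DAC-treated cells (2.57 to 2.76), so the arrest genes did not share a direction. *PLK3*, another polo-like kinase, had 2502 and 3289 UMIs (ratio 1.11), and *BTG2*, an antiproliferative cofactor of mRNA deadenylation, had 1272 and 1502 UMIs (ratio 0.998, interval 0.926 to 1.08). The median log2 ratio of the 5 arrest genes, that of *PLK3*, was 0.15, under the all-gene median of 0.24, and it was −0.03 under median-of-ratios scaling.

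Of the 12 death genes, 10 passed the minimum, and 5 of them were higher, 2 were lower, and 3 lay between the limits, beside 31% higher and 14.2% lower of all genes, with a median log2 ratio of 0.69. *BBC3* (chr19:47220822-47232766, minus strand), which encodes the pro-apoptotic BH3-only protein PUMA, had 2354 UMIs in mock-treated and 1151 in DAC-treated cells, and was 2.42-fold higher in mock-treated cells (2.25 to 2.60). *TNFRSF10B*, which encodes the TRAIL death receptor DR5, had 3195 and 2437 UMIs, and was 1.55-fold higher in mock-treated cells (1.47 to 1.64). The death receptor gene *FAS* went the other way, with 292 and 651 UMIs and a level 1.88-fold higher in DAC-treated cells (1.64 to 2.17). The apoptosis effector gene *BAX* had 3965 and 6921 UMIs, and its ratio of 1.48 (1.42 to 1.53) lay just under the limit of 1.5. Its log2 ratio was past the limit under the mean of per-cell CPM (0.60) and with totals without mitochondrial genes (0.60), and was 0.38 under median-of-ratios scaling.

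The death genes with the highest ratios among those that passed were *PHLDA3* and *AEN*. *PHLDA3* (chr1:201464278-201469237, minus strand), which encodes a repressor of AKT, had 1000 and 3887 UMIs and a ratio of 3.29 (3.06 to 3.53). *AEN*, which encodes an apoptosis-enhancing nuclease, had 644 and 1970 UMIs and a ratio of 2.59 (2.36 to 2.83). *TRIAP1*, whose mitochondrial product restrains apoptosis, had 2387 and 5001 UMIs (ratio 1.77). *TP53INP1*, which encodes a stress protein of the nucleus and of autophagosomes, had 283 and 599 (ratio 1.79, and a log2 ratio of 0.52 under the mean of per-cell CPM, under the limit). The desmosomal gene *PERP* had 7641 and 12947 UMIs (ratio 1.43), and the quinone oxidoreductase gene *TP53I3* had 866 and 1446 (ratio 1.41, and a log2 ratio of 0.92 under the mean of per-cell CPM, past the limit). *TNFRSF10C*, which encodes a decoy receptor without a death domain, had 11 and 63 UMIs. The ectodysplasin receptor gene *EDA2R* had 1 and 15. Both of these were under the minimum, and their ratios of 4.84 (2.53 to 10.2) and 12.7 (1.95 to 534) rest on few molecules. Under the mean of per-cell CPM, *TNFRSF10C* had a log2 ratio of 0.68 instead of 2.28, and after thinning every cell to 10000 UMIs, *EDA2R* had 0.10 instead of 3.66.

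All 5 repair genes had log2 ratios above 0 (*XPC* was at −0.08 under median-of-ratios scaling), as did 8549 of all 13547 genes past the minimum. Only *POLH* and *DDB2* passed the 1.5-fold limit, beside 31% higher of all genes, and the median of the repair genes was 0.58. *POLH* (chr6:43576185-43620523, plus strand), which encodes the translesion DNA polymerase eta, had 218 and 963 UMIs and the highest ratio of the 31 genes that passed, 3.73 (3.22 to 4.35). *DDB2*, which recognizes ultraviolet damage in nucleotide excision repair, had 976 and 1969 UMIs and a ratio of 1.71 (1.58 to 1.84). *XPC*, which acts with DDB2 in the same step, had 2133 and 2712 UMIs and a ratio of 1.07 (1.02 to 1.14). *RRM2B*, the p53-inducible subunit of ribonucleotide reductase, had 1101 and 1950 UMIs, and its ratio of 1.497 (1.39 to 1.61) lay just under the limit. Its log2 ratio passed the limit under 4 of the 6 alternatives, and was 0.85 under the mean of per-cell CPM. *ASCC3*, a helicase used in repair of alkylated DNA, had 1872 and 2743 UMIs (ratio 1.24).

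Of the 4 metabolism genes, 3 passed the minimum, and 2 of them were higher (1 of 3 under median-of-ratios scaling) and 0 were lower, beside 31% and 14.2% of all genes. *TIGAR* (chr12:4307763-4360028, plus strand), a fructose-2,6-bisphosphatase that lowers glycolysis, had 671 and 2166 UMIs and a ratio of 2.73 (2.50 to 2.98). *SESN1*, an inhibitor of mTORC1 signaling, had 202 and 393 UMIs and a ratio of 1.64 (1.38 to 1.96). *FDXR*, the mitochondrial ferredoxin reductase, had 4494 and 5555 UMIs and a ratio of 1.04 (1.00 to 1.09). *SPATA18*, a gene of mitochondrial quality control, had 5 and 24 UMIs, under the minimum.

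Of the 8 genes of feedback and other roles, 5 were higher, 1 was lower, and 2 lay between the limits, beside 31% higher and 14.2% lower of all genes, with a median log2 ratio of 0.72. Under median-of-ratios scaling, 3 of the 8 were higher and 1 was lower, beside 23.0% and 19.8% of all genes. *MDM2* and *PPM1D*, which restrain p53, were higher in DAC-treated cells. *MDM2* (chr12:68808177-68845544, plus strand) had 1762 and 4583 UMIs and a ratio of 2.20 (2.08 to 2.32). *PPM1D*, which encodes the phosphatase WIP1, had 533 and 1526 UMIs and a ratio of 2.42 (2.19 to 2.68). *CCNG1*, which encodes cyclin G1, a partner of protein phosphatase 2A and MDM2, had 2661 and 2447 UMIs and a ratio of 0.777 (0.735 to 0.821), between the limits (after thinning every cell to 10000 UMIs its log2 ratio was −0.71, past the limit).

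Of the remaining genes of this class, *RPS27L* (chr15:63125872-63158021, minus strand), a paralog of a ribosomal protein gene, had 11259 and 22301 UMIs and a ratio of 1.67 (1.64 to 1.71). *ZMAT3*, an RNA-binding zinc finger gene, had 853 and 1643 UMIs (ratio 1.63), *SUSD6*, which encodes a membrane protein, had 127 and 301 (2.54 and 5.10 CPM, interval of the ratio 1.62 to 2.49), and *FBXO22*, a ubiquitin ligase subunit, had 3144 and 4984 (ratio 1.34). *GDF15* (chr19:18374731-18389176, plus strand), a secreted stress cytokine of the TGF-β superfamily, had the lowest ratio of all 34 genes. It had 37578 UMIs in mock-treated and 15218 in DAC-treated cells, or 753 and 258 CPM, a level 2.92-fold higher in mock-treated cells (2.87 to 2.98). All 34 genes together took 0.227% of the UMIs of the mock-treated library and 0.229% of those of the DAC-treated library. Without *GDF15*, the shares were 0.151% and 0.204%.

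Several annotated genes overlap p53 target genes on the same strand, *STAMBPL1* with *FAS*, *MIR3191* with *BBC3*, *MIR3189* with *GDF15*, *RNU6-653P* with *SESN1*, and genes without a symbol with *PHLDA3*, *TIGAR*, *MDM2*, *SUSD6*, and *TNFRSF10C*. The effect of reads shared with them was not tested. Genes with and without a match to the p53 site were also set side by side. Of 13 genes with a match, 11 passed the minimum, 7 were higher and 1 was lower, beside 31% and 14.2% of all genes, with a median log2 ratio of 0.77. The 13 genes without a match all passed, and 7 were higher and 1 was lower, with a median of 0.72. By promoter, the 14 higher genes with a RefSeq promoter held a median of 31.5 CpGs (14 to 43) in the 300 bases, and the 8 genes between the limits held 28.5 (9 to 43). The 2 lower genes with a promoter, *BBC3* and *GDF15*, held 5 and 11. No RefSeq promoter was matched for the lower genes *GADD45A* and *TNFRSF10B*, so their CpGs were not counted.

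The p53 regulators and other p53 targets were then compared with the p53 target genes. Of 21 regulators of p53, 20 passed the minimum, 2 were higher (*WRAP53* and *TP73*) and 2 were lower (*RPL5* and *HIPK2*), beside 31% and 14.2% of all genes, with a median log2 ratio of 0.12. Under median-of-ratios scaling, 1 was higher and 5 were lower, beside 23.0% and 19.8% of all genes, with a median of −0.06. *WRAP53*, which encodes a telomerase and Cajal body protein, had 333 and 1320 UMIs and a ratio of 3.35 (2.97 to 3.79). The p53 family gene *TP73* had 196 and 353 UMIs (ratio 1.52) and the checkpoint kinase gene *CHEK1* had 1170 and 2008 (ratio 1.45). *RPL5* and *RPL11*, which encode ribosomal proteins that can bind MDM2, had 150551 and 100383 UMIs (ratio 0.564) and 170182 and 136184 UMIs (ratio 0.676), and *HIPK2*, a kinase of p53, had 3149 and 2410 (ratio 0.647).

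Of a list of 38 further p53 targets, 33 passed the minimum, and 9 were higher and 7 were lower (27.3% and 21.2%), near the 31% and 14.2% of all genes. Under median-of-ratios scaling, 7 were higher and 9 were lower, beside 23.0% and 19.8% of all genes. The median log2 ratio of the 33 genes was −0.02 (−0.20 under median-of-ratios scaling and 0.13 under the mean of per-cell CPM). *SFN*, which encodes the G2 arrest protein 14-3-3 sigma, had 7312 and 17447 UMIs and a ratio of 2.02 (1.96 to 2.07). *IGFBP3* had 25 and 108 UMIs (ratio 3.65), and *SLC12A4*, a potassium-chloride transporter gene, had 343 and 1271 (ratio 3.13). At the other end, *DDIT4*, an inhibitor of mTORC1, had 11274 and 954 UMIs and was 14.0-fold higher in mock-treated cells (13.1 to 14.9). The cytokine genes *KITLG* and *LIF* had 9449 and 2728 UMIs (4.10-fold) and 2175 and 827 UMIs (3.11-fold), both higher in mock-treated cells. *IGFBP7*, which was chosen after its values were seen, had 0 UMIs in mock-treated and 37 in DAC-treated cells. This was 10.4-fold higher against a floor of 3 UMIs over the library, and at least 8.06-fold by the lower limit of the exact interval.

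Most genes that p21 represses through the DREAM complex were higher in DAC-treated cells, beside the higher *CDKN1A*. Of 18 such genes of mitosis, 16 were higher and 0 were lower, compared with 31% and 14.2% of all genes, with a median log2 ratio of 1.15. The ratios were highest for *CDC20* (2.99), *AURKA* (2.94), and *KIF20A* (2.86), and lowest for *CCNB2* (1.04), *CDC25C* (1.29), and *NEK2* (1.57). Of 18 S-phase genes, 15 were higher and 0 were lower, beside the same shares of all genes, with a median of 1.09. *GINS2* (3.40), *RRM2* (3.35), and *CCNE2* (3.24) had the highest ratios, and *CDT1* (1.32), *MCM6* (1.35), and *MCM7* (1.38) the lowest. At 10000 UMIs per cell, the 18 mitosis genes summed to a median of 1 UMI in mock-treated cells (quartiles 0 and 5) and 12 in DAC-treated cells (quartiles 2 and 22). The 18 S-phase genes summed to 3 (quartiles 2 and 8) and 14 (quartiles 6 and 23).

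**Figure D2:**
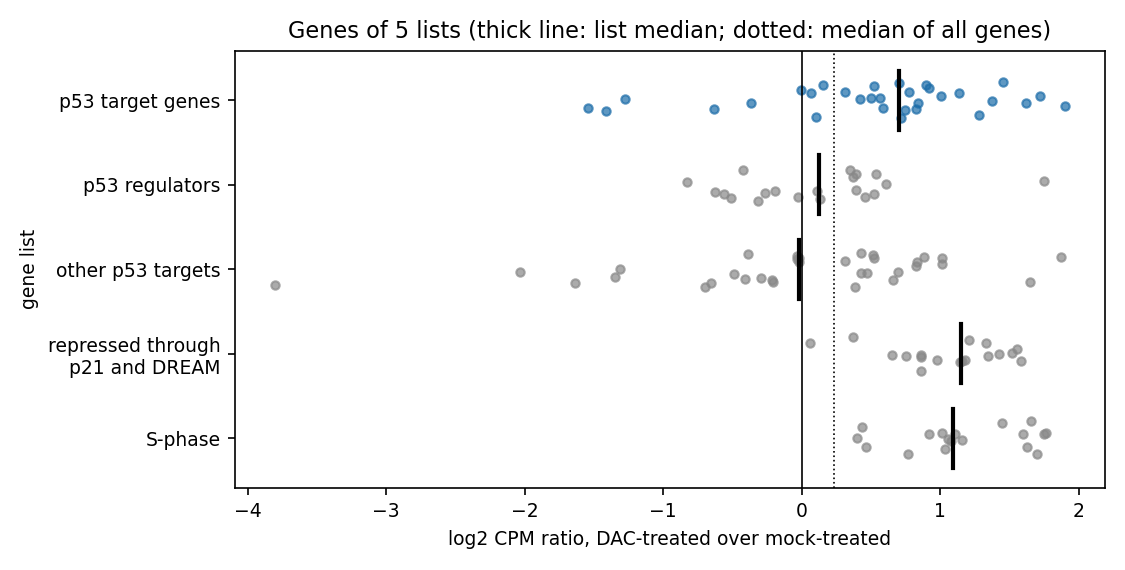
Log2 CPM ratio (DAC-treated over mock-treated, x axis) of the genes of 5 lists (y axis), 1 point per gene with at least 100 UMIs, with a thick line at the median of each list and a dotted line at the median of all genes. The mitosis genes repressed through p21 and DREAM (median 1.15) and the S-phase genes (1.09) have higher medians than the p53 target genes (0.70), and the regulators (0.12) and other p53 targets (−0.02) lie below the all-gene median of 0.24.

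Next, the distribution over single cells was examined after thinning each cell to 10000 UMIs, which makes depth equal. This left 1388 mock-treated and 1293 DAC-treated cells, and 395 and 458 cells with fewer UMIs were left out. At least 1 *CDKN1A* UMI was found in 44.7% of mock-treated cells (exact 95% interval 42.1 to 47.4) and 63.8% of DAC-treated cells (61.1 to 66.4). Without thinning, the shares over all cells were 56.4% and 69.4%. At least 3 UMIs were found in 10.1% (8.55 to 11.8) and 25.3% (22.9 to 27.8). Since both libraries held 1 cell line, no cell type without these transcripts gave a level for free RNA.

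The share of cells with *GDF15* was smaller in DAC-treated cells. At least 1 *GDF15* UMI was found in 87.8% of mock-treated (86.0 to 89.5) and 47.2% of DAC-treated cells (44.4 to 49.9), and at least 3 UMIs in 65.8% and 24.6%. Unthinned, the shares with at least 1 UMI were 84.9% and 54.8%. Its variation between cells was larger in the DAC-treated library. The squared coefficient of variation beyond Poisson sampling, which is 0 when all cells have the same level, was 1.55 in mock-treated and 5.90 in DAC-treated cells. For *CDKN1A* it was 5.14 and 1.48. A single mock-treated cell with 67 *CDKN1A* UMIs decided the former value, and without the highest cell of each library the values were 2.21 and 1.35.

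*MDM2* was detected in 25.1% of mock-treated (22.9 to 27.5) and 47.0% of DAC-treated cells (44.3 to 49.8), and *PLK2* in 20.4% (18.3 to 22.6) and 50.1% (47.4 to 52.9). *PHLDA3* was detected in 18.4% (16.4 to 20.5) and 41.1% (38.4 to 43.8). *BBC3* was found in fewer DAC-treated cells, 15.1% (13.2 to 17.1) compared with 36.7% (34.1 to 39.3). Per cell, the 32 genes other than *CDKN1A* and *GDF15* summed to a median of 13 UMIs in mock-treated cells (quartiles 9 and 17) and 16 in DAC-treated cells (quartiles 11 and 23). The upper quartile differed more than the lower one.

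**Figure D3:**
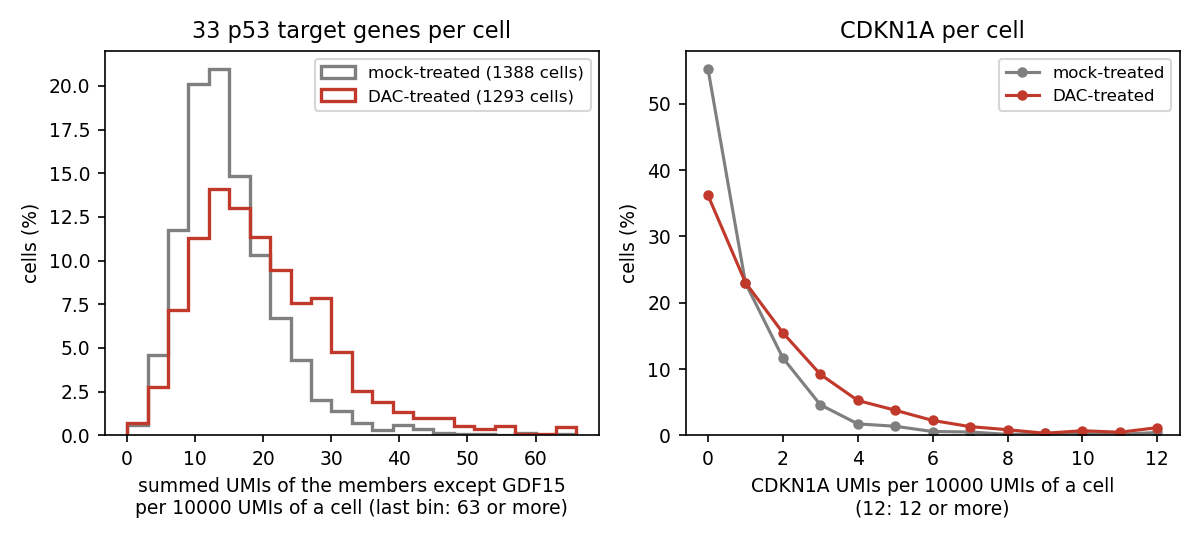
Share of cells (y axis, %) by the summed UMIs of the 33 p53 target genes other than *GDF15* (left x axis) and by *CDKN1A* UMIs (right x axis), at 10000 UMIs per cell, in 1388 mock-treated (grey) and 1293 DAC-treated cells (red). The DAC-treated distribution extends further right in both panels, and the share of cells with 0 *CDKN1A* UMIs is smaller.

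To examine whether the p53 target genes varied together with *CDKN1A* in single cells, Pearson's r between log2(UMIs + 1) of each gene and of *CDKN1A* was computed across the thinned cells of each library, for genes with a mean of at least 0.05 UMI per cell. The cells share a library, so r is a description and has no p-value. Of the 33 genes other than *CDKN1A*, 27 reached the mean in mock-treated cells, and 18 of them had r of 0.1 or more (66.7%), compared with 1.76% of 9536 genes. In DAC-treated cells, 30 reached the mean, and 22 of them had r of 0.1 or more (73.3%), compared with 6.88% of 10072 genes. The median r was 0.12 in mock-treated and 0.14 in DAC-treated cells, against 0.01 and 0.02 over all genes. Most of these correlations were weak, at counts of about 1 UMI per cell or fewer. They were above 0 for 26 of 27 genes and 30 of 30 genes, with *PERP* in mock-treated cells (r = −0.04) the exception. The all-gene medians were also above 0, and the share of all genes with r above 0 was not computed.

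Of all genes, *GDF15* had the highest r with *CDKN1A* in mock-treated cells (0.35), followed by *RPS27L* (0.27), *SFN* (0.23), *GADD45A* (0.22), and *MDM2* (0.21). In DAC-treated cells, *RPS27L* (0.35) and *GDF15* (0.34) came first, followed by *S100A6* (0.32), *FTH1* (0.30), and *SERF2* (0.28), which are not p53 target genes of the list. *MDM2* (0.25) was among the 10 highest in both libraries. *GDF15* and *GADD45A*, which were lower in DAC-treated cells as a library total, were thus positively correlated with *CDKN1A* within both libraries (*GADD45A* r = 0.18 in DAC-treated cells). *BBC3* had r of 0.13 and 0.21. The genes with the lowest r in mock-treated cells were *MT-ATP6*, *MT-CYB*, *MT-ND4*, *MT-ND3*, and *MT-CO2* of the mitochondrial genome (−0.15 to −0.12). In DAC-treated cells they were *MT-ND6* (−0.25), the cyclin gene *CCNB1* (−0.18), *MT-ND1* (−0.17), and the mitotic chromosome and spindle genes *SMC4* (−0.17) and *ASPM* (−0.15).

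**Figure D4:**
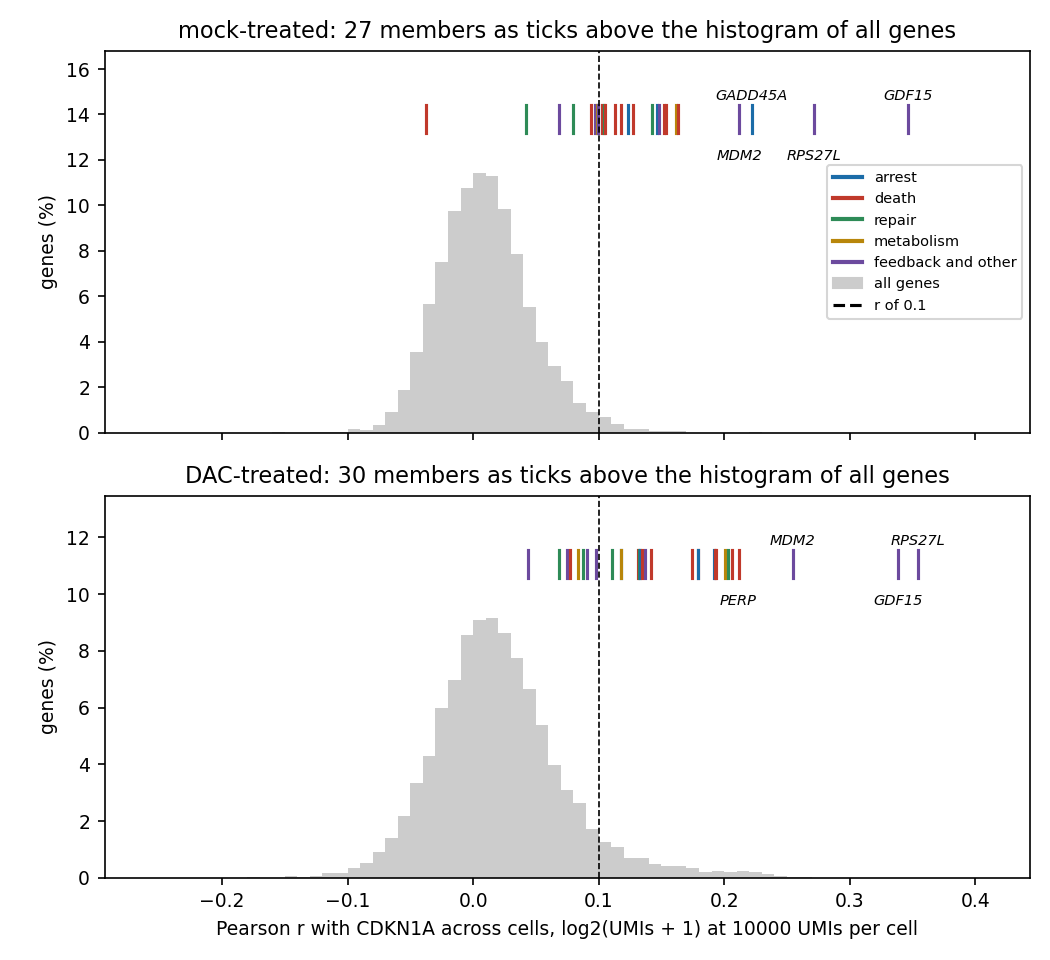
Share of all genes (y axis, %) by Pearson's r with *CDKN1A* across cells (x axis) at 10000 UMIs per cell, in mock-treated (top) and DAC-treated cells (bottom), with each p53 target gene as a tick coloured by role. The dashed line marks r of 0.1, and 18 of 27 ticks in mock-treated and 22 of 30 in DAC-treated cells lie at or beyond it, beside 1.76% and 6.88% of all genes.

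By role, the median r in mock-treated cells was 0.14 for 4 arrest genes, 0.12 for 10 death genes, 0.09 for 4 repair genes, 0.13 for 2 metabolism genes, and 0.15 for 7 genes of feedback and other roles. In DAC-treated cells it was 0.16, 0.18 (10 genes), 0.11 (5 genes), 0.12 (3 genes), and 0.12 (8 genes). The roles overlapped in both libraries. Of the further p53 targets, 7 of 31 and 13 of 30 had r of 0.1 or more (22.6% and 43.3%), compared with 1.76% and 6.88% of all genes. Of the regulators, 1 of 19 and 2 of 20 did (5.26% and 10%), near the 1.76% and 6.88% of all genes.

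The mitosis genes repressed through p21 and DREAM were also examined for their relation to *CDKN1A*. None of the 18 had r of 0.1 or more in either library, near the 1.76% and 6.88% of all genes. Their median r was 0.03 in mock-treated and −0.10 in DAC-treated cells, against 0.01 and 0.02 over all genes. Of the 18 genes, 16 were above 0 in mock-treated and 0 in DAC-treated cells. The share of all genes with r above 0 was not computed. The difference between the libraries was not tested. The summed UMIs of the 18 mitosis genes per cell had r of 0.10 and −0.16 with *CDKN1A*, and those of the S-phase genes had 0.13 and −0.07. The other p53 target genes, summed per cell, had r of 0.46 in mock-treated and 0.49 in DAC-treated cells, and 0.41 and 0.47 without *GDF15*. Even at equal depth, *CDKN1A* had r of 0.23 and 0.21 with the log2 total UMIs of the cell before thinning, and −0.13 and −0.11 with the summed mitochondrial genes. With the same log2 total, the sum of the other p53 target genes had r of 0.29 and 0.17 (0.32 and 0.23 without *GDF15*). The sum of the mitosis genes had r of 0.26 and 0.25 with it. Without cells with more than 50% mitochondrial UMIs (90 of the mock-treated and 173 of the DAC-treated cells at this depth), 17 of 27 and 20 of 30 p53 target genes had r of 0.1 or more, compared with 0.773% and 1.21% of all genes.

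*CDKN1A* had the highest median r with the other p53 target genes in mock-treated cells (0.12 over 27 partners), followed by *RPS27L* (0.09). In DAC-treated cells, *RPS27L* came first (0.15) and *CDKN1A* second (0.14), followed by *MDM2* (0.12). Over all 378 pairs of the 28 genes, the median r was 0.05 in mock-treated and 0.07 in DAC-treated cells, and 326 (86.2%) and 356 (94.2%) pairs were above 0. Over all pairs of the 9075 genes that reached the mean in both libraries, the median r was 0.01 in each, and 59.3% and 61.3% of pairs were above 0.

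Finally, the cells of each library were ranked by *CDKN1A* and cut into 3 groups of equal size, and the group with the most was compared with the group with the least. In mock-treated cells, each group held 462 cells, with 0 *CDKN1A* UMIs in the low group and 1 or more in the high group. In DAC-treated cells, each group held 431 cells, with 0 and with 2 or more UMIs. Cells with the same count were put in random order, so the low group was a random choice from the 767 mock-treated and 468 DAC-treated cells with 0 UMIs, and the cells at the lower end of the high group were likewise chosen at random. The median ratio of summed UMIs, high over low, was 1.5 over 27 p53 target genes in mock-treated cells, and 26 of them were above 1, of which 22 had an interval above 1. Over the 9536 genes, the median was 1.03, 57.4% were above 1, and 10.6% had an interval above 1. In DAC-treated cells the median was 1.80 over 30 p53 target genes, and all 30 and their intervals were above 1. Over the 10072 genes, the median was 1.09, 64.1% were above 1, and 21.6% had an interval above 1. The part of a cell's total UMIs before thinning, with which *CDKN1A* was correlated as given above, was not tested.

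In DAC-treated cells, the ratio was highest for *TP53INP1* (22 and 87 UMIs in the low and high group, ratio 3.95, interval 2.45 to 6.63), *GDF15* (535 and 2115, ratio 3.95, interval 3.59 to 4.35), and *BBC3* (44 and 138, ratio 3.14, interval 2.22 to 4.51). *FAS* had 25 and 72 UMIs (ratio 2.88), *BTG2* had 65 and 168 (ratio 2.58), and *MDM2* had 220 and 506 (ratio 2.30). *FBXO22* had the lowest ratio, with 322 and 377 UMIs (1.17, interval 1.01 to 1.36). In mock-treated cells, *GDF15* had 2420 and 4707 UMIs (ratio 1.95, interval 1.85 to 2.04), *MDM2* had 108 and 208 (ratio 1.93), and *PERP* had 764 and 696 (ratio 0.911, interval 0.821 to 1.01). *BBC3* had 217 and 275 UMIs in mock-treated cells (ratio 1.27, interval 1.06 to 1.52). The groups were cut at different *CDKN1A* counts in the 2 libraries, so their ratios are not on 1 scale.

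**Figure D5:**
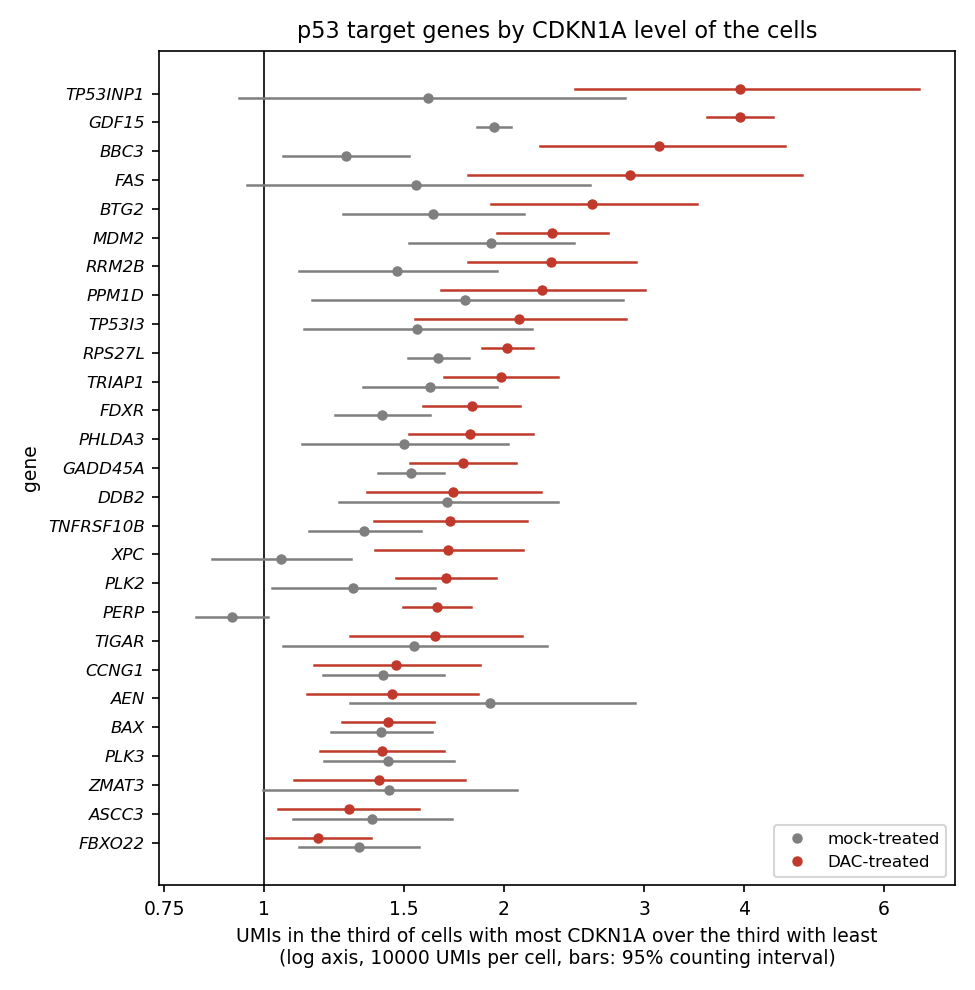
Ratio of summed UMIs between the high and the low of 3 groups of cells ranked by *CDKN1A* (x axis, log scale) for the 27 p53 target genes compared in both libraries (y axis), in mock-treated (grey) and DAC-treated cells (red), with 95% counting intervals as bars. All DAC-treated values lie above 1, led by *TP53INP1* and *GDF15* at 3.95, and *PERP* in mock-treated cells (0.911) is the only value below 1.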

How the data were processed

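Both libraries were prepared with the 10x Genomics single-cell 3′ kit (v3), from 1 mock-treated and 1 DAC-treated culture of HCT116. The authors processed the reads with Cell Ranger on hg38 and deposited raw UMI counts of every gene in every cell, not normalized. The annotation release and the filter on cells are not given in the sources used here, and all deposited cells were used. No doublets were called, since doublets of 1 cell line carry no marker. The members and lists were chosen with earlier results of these data known, and the list of ATF4 targets after the results had been seen.

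The gene names repeated in the tables, 24 in all, included none of the p53 target genes. CPM ratios were computed from UMI sums with exact conditional binomial 95% intervals, and Clopper-Pearson intervals were used for the shares of cells. Cells with fewer than 10000 UMIs were left out before thinning without replacement (seed 1). Genes named were all p53 target genes, the 3 highest and 3 lowest ratios of each other list among genes past the minimum, and the 5 highest and 5 lowest r with *CDKN1A* in each library, besides *IGFBP7*. Values of 1 further gene of the rule are not reported here, and its list is given without it. Positions were taken from GENCODE release 44 on hg38 and promoters from RefSeq (GRCh38.p14). Python 3.11.15, numpy 2.4.6, scipy 1.17.1, pandas 2.3.3, and matplotlib 3.10.9 were used, and the computations were tested on simulated data. The libraries were single for each condition, and p-values were not computed. The alternatives were other scalings, cells, depths, minimums, limits, and measures of correlation.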

Additional observations from a re-analysis of the deposited data

How the results depend on the processing

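The number of p53 target genes higher in DAC-treated cells ranged from 13 to 18 and the number lower from 4 to 5 over the alternatives other than the fold limit, beside 23.0% to 36.1% and 12.2% to 19.8% of all genes. With a limit of 2-fold, 8 were higher and 3 were lower (25.8% and 9.68%), beside 16.3% and 6.80% of all genes. Their median log2 ratio was 0.52 under median-of-ratios scaling. At 5000 UMIs per cell, 10 of 24 genes had r of 0.1 or more with *CDKN1A* in mock-treated cells and 15 of 28 in DAC-treated cells, beside 3.68% and 4.67% of all genes. Without thinning and on the scale log2(CPM + 1), 28 of 30 and 30 of 30 did, with a median r of 0.18 in mock-treated and 0.27 in DAC-treated cells, but so did 35.5% and 46.8% of all genes. At 20000 UMIs per cell, the median r in DAC-treated cells was 0.20. With a limit of r of 0.2, 4 genes in mock-treated and 7 in DAC-treated cells remained, beside 0.0524% and 0.983% of all genes. Without the 1% of cells highest in *CDKN1A*, an alternative chosen after seeing the data, 12 of 26 genes reached r of 0.1 in mock-treated cells, with a median r of 0.09, and 22 of 30 in DAC-treated cells, beside 2.46% and 6.96% of all genes. The median of all p53 target genes stayed above 0 and above that of all genes under every alternative, whereas that of the arrest genes was −0.03 and that of the regulators −0.06 under median-of-ratios scaling. No paired analysis was possible because each condition had 1 library. Without replicates, the spread between cultures is unknown, and the intervals cover counting error only.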

Other observations

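ATF4 is a transcription factor that cells use when amino acids run short, and some p53 target genes are also known to respond to it. Of 12 of its target genes, a list chosen after the results were seen, 11 had at least 100 UMIs. Of these, 9 were lower in DAC-treated cells by 1.5-fold or more and 0 were higher, beside 14.2% and 31% of all genes, with a median log2 ratio of −2.35. The lowest ratios were those of the asparagine synthetase gene *ASNS*, with 13924 UMIs in mock-treated and 1881 in DAC-treated cells, the pseudokinase gene *TRIB3*, with 6202 and 944, and the cystine transporter gene *SLC7A11*, with 5399 and 925. The highest were those of *ATF5*, with 3033 and 5194 UMIs, *ATF3*, with 1945 and 2000, and *SLC7A5*, with 9153 and 6935. Across mock-treated cells at 10000 UMIs, the summed ATF4 targets had r of 0.35 with *GADD45A*, 0.27 with *GDF15*, and 0.21 with *TNFRSF10B*, which are 3 of the 4 p53 target genes lower in DAC-treated cells. The fourth, *BBC3*, had r of −0.05. Over the 28 p53 target genes compared, the median r was −0.03, with *PERP* (−0.20), *TP53INP1* (−0.18), and *CCNG1* (−0.16) the lowest, and *CDKN1A* had 0.07. The summed ATF4 targets had r of 0.18 with the log2 total UMIs of the cell before thinning. In DAC-treated cells, r was 0.14 for *GADD45A*, 0.10 for *TNFRSF10B*, 0.06 for *BBC3*, and 0.04 for *GDF15*, with a median of −0.01 over 31 genes. For genes other than the p53 target genes, r with the summed ATF4 targets was not computed, so these values have no background. The part of ATF4 in the lower p53 target genes was not tested.

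The mock-treated cell with the most *CDKN1A* had 67 of its UMIs per 10000, while the next cell had 20. The same cell held 180 *GDF15* and 57 *GADD45A* UMIs, but 6 *RPS27L* UMIs. In DAC-treated cells, the highest cell had 29 *CDKN1A* UMIs and the next had 25, and the highest cell held 2 *GDF15* UMIs.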
